A study of Mus musculus with 19 samples.

Results

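Leptin and interleukin 6 act on cells through related receptors of the cytokine class that carry no kinase of their own and signal through JAK kinases and the transcription factor STAT3. The genes described here are 6 named members of this system, given by name, with no threshold on a measured value: the leptin receptor gene Lepr, its trafficking neighbour Leprot, the interleukin 6 receptor gene Il6ra, the shared signalling subunit Il6st (gp130), the transducer Stat3 and the feedback inhibitor Socs3. All 6 were present among the 55836 genes of the count table, and all 6 were among the 13597 genes abundant enough to be tested. Poly(A) RNA was sequenced from the livers of 19 male C57BL/6 wild-type mice, aged 8 weeks at the start, 1 library per mouse. Mice ate a control diet (CD) or a metabolic diet (MD) rich in fat, fructose and cholesterol, and were gavaged for 8 weeks with vehicle (Veh, water with Tween 20) or with polyethylene particles (PE) in it, at 2 mg per mouse per day. CD + Veh held 4 livers, and CD + PE, MD + Veh and MD + PE held 5 each. The questions were what the diet and the particles, alone and together, did to the RNA of these genes.

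In the liver, hepatocytes respond to interleukin 6 by making acute phase proteins, a response that STAT3 drives. SOCS3, itself a product of STAT3 activation, binds the receptors and shuts the signal off. The liver also expresses Lepr, whose transcripts encode signalling and non-signalling forms of the receptor and a secreted form that binds leptin in blood. Levels below are CPM (counts scaled to equal library totals, adjusted by TMM factors), and the counts cannot separate the forms.

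Libraries of vehicle mice held 13406037 to 15456729 counts and those of PE mice 10398820 to 12757617, without overlap. Every comparison of PE with vehicle is thus also one of depth, whose part was not tested. Hepatocyte markers, 10 genes such as albumin, summed to 55500 to 101000 CPM, with no marker at 0 in any group. Marker sums of other cell types differed between libraries, and their source was not tested. Skeletal muscle markers summed to 3130 CPM in MD + Veh replicate 1, 198 in replicate 2, 141 in replicate 3 and 423 in CD + PE replicate 1, and to at most 38.7 in the other libraries. Kupffer cell markers summed to 891 CPM in CD + PE replicate 2 and to 123 to 451 elsewhere, with the MD + Veh livers above the CD + Veh livers. Adipocyte markers summed to 109 to 270 CPM in the MD libraries and to 5.84 to 15.5 in the CD libraries. In bulk liver, fewer cells of a type and less RNA per cell cannot be told apart.

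Lepr lies on chromosome 4 of GRCm39 from 101574601 to 101676237 on the plus strand, with 18 exons in its canonical transcript and no annotated gene overlapping it. Leprot lies upstream of it on the same strand, from 101504482 to 101516597, with 58.0 kb and 0 annotated genes between them. Il6ra is on chromosome 3 (89771366 to 89820719, minus strand) and Il6st on chromosome 13 (112600604 to 112646620, plus strand). Stat3 (100775924 to 100830450) and Socs3 (117856905 to 117860898) are both on the minus strand of chromosome 11. An exon of Stat5a on the opposite strand overlaps Stat3 exons over 142 bases, and the antisense non-coding gene Gm46295 shares 554 exon bases with Stat3. Il6ra, Il6st and Socs3 also have antisense non-coding neighbours, which share 458, 181 and up to 261 exon bases with them.

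The sequence before the Lepr start is shown because Lepr was the one member called different between groups. The 250 bases before its canonical start, chr4:101574351-101574600 of GRCm39 on the plus strand, hold 58.4% G and C. They were searched, on both strands at once, for TTCNNNGAA, the palindromic core bound by activated STAT dimers. No match was found, so all letters are lower case.

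Lepr: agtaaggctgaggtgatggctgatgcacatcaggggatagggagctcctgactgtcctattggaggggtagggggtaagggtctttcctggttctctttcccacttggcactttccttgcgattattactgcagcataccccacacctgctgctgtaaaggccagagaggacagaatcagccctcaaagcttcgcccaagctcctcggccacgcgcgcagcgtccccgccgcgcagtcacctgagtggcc

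The windows of the same length before Leprot, Il6ra, Il6st and Stat3 held no match either. That of Socs3 held 1, at bases 223 to 215 before its canonical start (chr11:117860338-117860346 of GRCm39). Exons of other transcripts of the same gene cover 250 bases of the Leprot window, 216 of Il6ra, 173 of Socs3 and 23 of Stat3. They cover 0 bases of the Lepr and Il6st windows. The Socs3 match thus lies before the canonical start but inside the annotated span of the gene. It is shown in capitals with its flanks, read on the minus strand.

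Socs3: gaaaccagccTTCTTAGAAgggagggggg

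The palindrome stood in 7.70% of all 21757 such windows (1675 windows), so that its presence or absence in 1 window is common. A match is a string of letters, not a measured site.

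Of the 6 genes, Lepr varied most and Il6st least. Across the 19 libraries the highest level of Lepr was 30.5 times the lowest, against 12.9 times for Socs3, 3.11 for Il6ra, 1.80 for Leprot, 1.77 for Stat3 and 1.39 for Il6st. Per kb of annotated exon, Il6st stood highest in CD + Veh, at 9.34 ± 0.789 CPM per kb (SD, n = 4), followed by Stat3 at 8.06 ± 1.58 and Il6ra at 4.67 ± 1.47. Leprot followed at 3.37 ± 0.416, Socs3 at 2.79 ± 0.877 and Lepr at 2.06 ± 1.57. The ranges of Il6st and Stat3 overlapped in that group, as did those of Il6ra, Leprot, Socs3 and Lepr. In MD + Veh, Lepr stood at 0.302 ± 0.152 CPM per kb (n = 5), below every library of the other 5 genes.

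**Figure D1:**
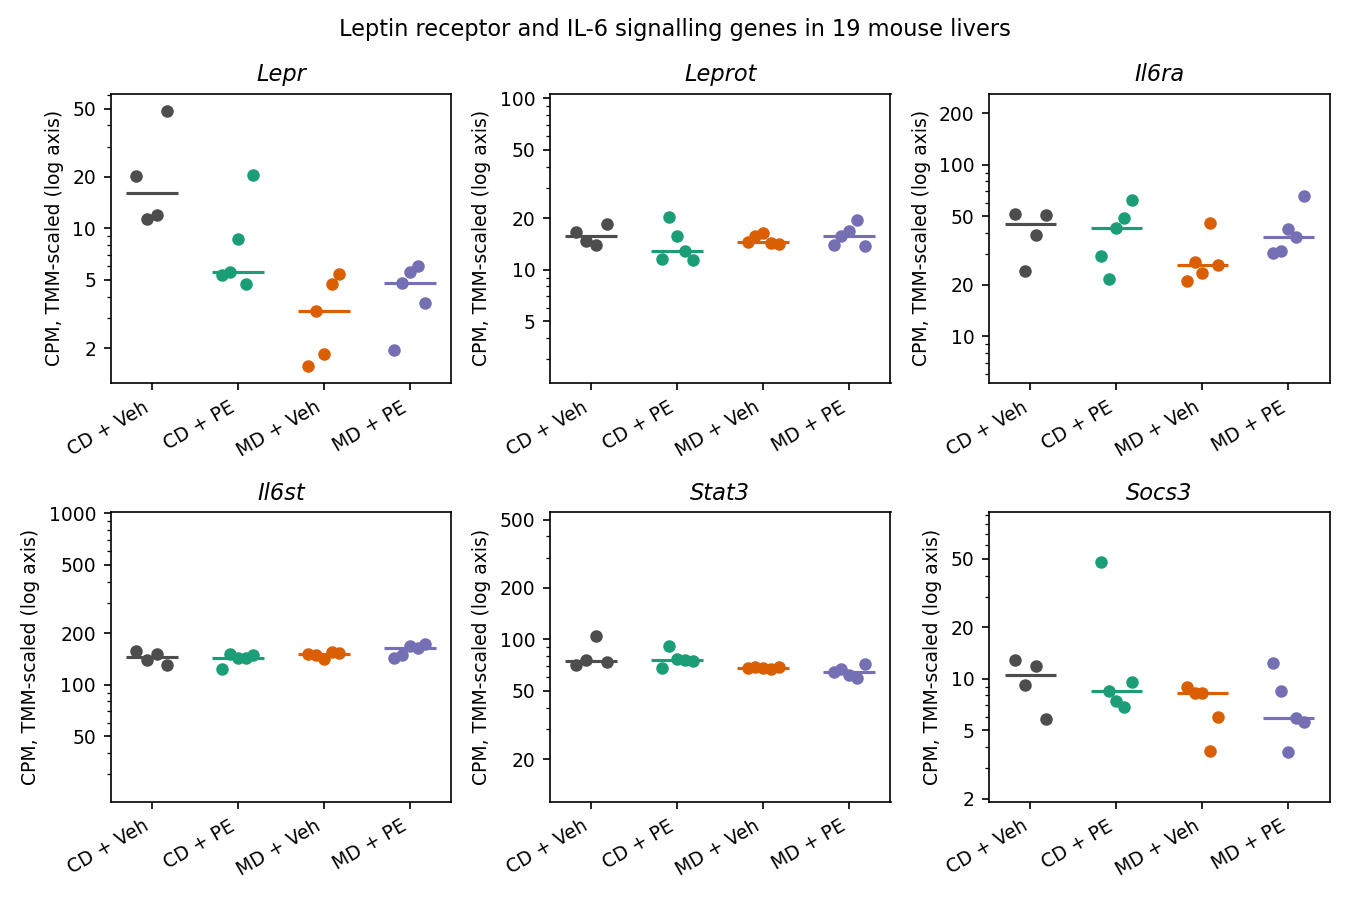
Level of each gene in every library, in TMM-scaled CPM on a log axis of the same span in each panel, by group; lines are group medians. Lepr spans 1.58 to 48.4 CPM and lies highest in CD + Veh, while Il6st stays between 123 and 172 CPM.

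A gene was called different at a Benjamini-Hochberg adjusted p below 0.05 over all tested genes with a log2 fold change of at least 0.38 in size, by the quasi-likelihood F test of edgeR. In MD + Veh against CD + Veh, 1 of the 6 genes was called, Lepr, beside 10.4% of all tested genes. In MD + PE against CD + Veh it was again Lepr alone, 1 of 6 beside 14.6%. No member was called in CD + PE against CD + Veh (0 of 6, background 2.92%), in MD + PE against MD + Veh (0 of 6, background 1.08%), in MD + PE against CD + PE (0 of 6, background 4.61%) or for the interaction of PE and diet (0 of 6, background 0.00735%). At an unadjusted p below 0.05 those last 4 comparisons held 1, 0, 3 and 1 of the 6 members, beside 17.5%, 15.7%, 21.7% and 8.77% of all tested genes, and DESeq2 called 0 members in each of them. With 6 genes, 1 call is close to what such backgrounds give. The comparisons share groups, so their values are not independent.

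The metabolic diet went with a fall of Lepr RNA. Lepr stood at 20.2, 11.3, 11.9 and 48.4 CPM in the 4 CD + Veh livers. It stood at 1.58, 3.28, 1.84, 4.72 and 5.41 CPM in the 5 MD + Veh livers. Every MD + Veh liver lay below every CD + Veh liver, and CD + Veh replicate 4 stood far above the other 3. The log2 fold change was -2.78 (SE 0.507, 95% interval -3.84 to -1.72, edgeR adjusted p = 0.00106), a level 6.87-fold lower. Without CD + Veh replicate 4 it was -2.10 (adjusted p = 0.00773).

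Lepr was also low in the livers that had both the diet and the particles. The 5 MD + PE livers had 1.95, 4.80, 5.56, 6.04 and 3.68 CPM, all below CD + Veh. The log2 fold change against CD + Veh was -2.37 (SE 0.499, interval -3.42 to -1.33, edgeR adjusted p = 0.00211), or -1.68 (adjusted p = 0.0198) without CD + Veh replicate 4. Against MD + Veh the groups overlapped throughout, with a difference of 0.41 (SE 0.507, interval -0.65 to 1.47, edgeR adjusted p = 0.764), an interval that holds changes in both directions.

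On the control diet the particle group lay between. The 5 CD + PE livers had 5.31, 5.53, 8.65, 4.72 and 20.6 CPM of Lepr. Replicate 5 fell inside the CD + Veh range and the other 4 lay below it. The difference from CD + Veh was not called here, and 1 library decided it. The log2 fold change passed the threshold without CD + PE replicate 5 (-1.92, edgeR adjusted p = 0.0277). It shrank to -0.68 (edgeR adjusted p = 0.541) without CD + Veh replicate 4. The paper, with DESeq2 at the same limits, names Lepr among the genes lowered by PE on the control diet only. The DESeq2 fit made here did not call it, and the source of that disagreement was not tested. Within PE mice the diet difference, MD + PE against CD + PE, was -1.01 (SE 0.488, interval -2.03 to 0.01, edgeR adjusted p = 0.234), and -0.45 (adjusted p = 0.619) without CD + PE replicate 5. The interaction, the PE difference on MD minus that on CD, was 1.77 on the log2 scale (SE 0.698, interval 0.31 to 3.23), with 1.1 when CD + Veh replicate 4 was left out and 2.33 without replicate 5 of CD + PE. It had an unadjusted p of 0.0204 in the edgeR fit and an adjusted p of 0.462, so a PE effect that differs by diet was not shown for Lepr.

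**Figure D2:**
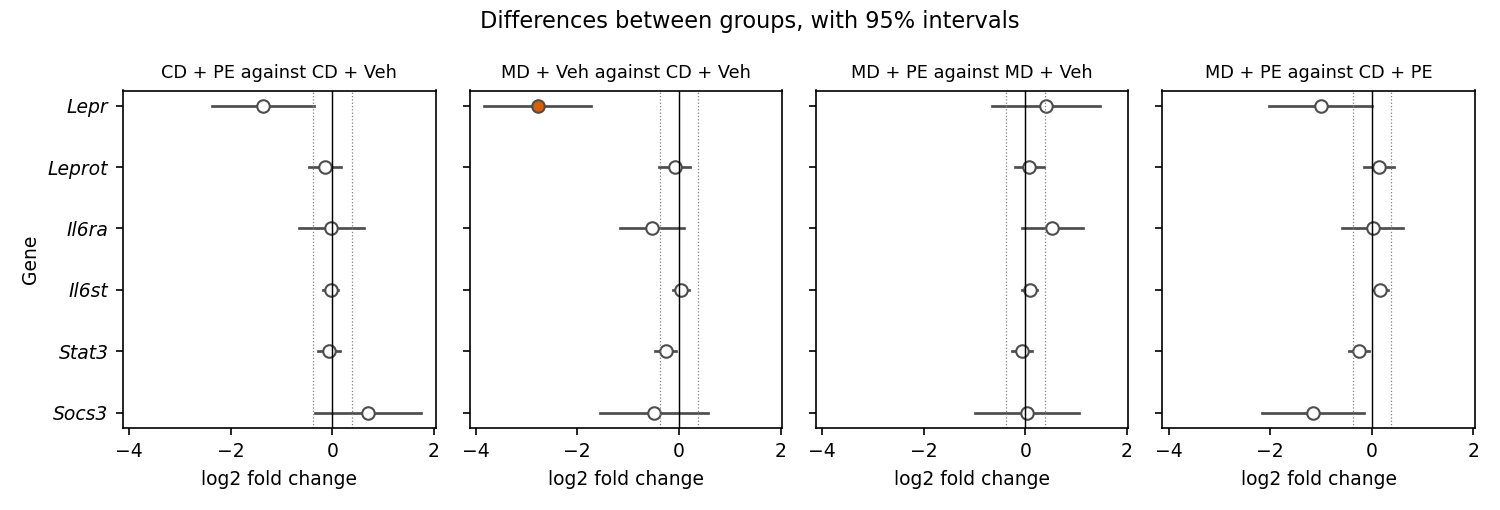
Log2 fold change of each gene in 4 comparisons with its 95% interval; dotted lines mark the minimum size of 0.38 and a filled point marks a called gene. Lepr in MD + Veh against CD + Veh, at -2.78, is the 1 filled point.

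The timing genes of the liver also differed between the groups. A clock score was formed per library as the mean log2 CPM of Bmal1, Clock, Npas2, Nfil3 and Cry1 minus that of Dbp, Tef, Nr1d1, Nr1d2, Per2, Per3 and Ciart, sets that peak at different times of day. It ran from -4.34 to -3.02 in CD + Veh, from -2.86 to 0.74 in CD + PE, from -2.17 to -0.02 in MD + Veh and from -1.86 to -0.02 in MD + PE. The score of CD + Veh thus overlapped with that of no other group, and the diet and the score cannot be told apart there. Within groups, the liver with the most Lepr had the lowest score in CD + Veh (replicate 4, -4.34), in CD + PE (replicate 5, -2.86) and in MD + Veh (replicate 5, -2.17). Not every liver followed this order. In CD + PE the liver with the least Lepr (replicate 4, 4.72 CPM) had the next lowest score, -2.63. In MD + PE the lowest score (replicate 5, -1.86) went with 3.68 CPM of Lepr, the liver with the most Lepr (replicate 4, 6.04 CPM) had a score of -1.13, and the liver with the least Lepr (replicate 1) had the highest score, -0.02.

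With the score as a covariate, the Lepr difference of MD + Veh from CD + Veh was -1.37 (edgeR adjusted p = 0.274) and that of MD + PE from CD + Veh was -0.99 (adjusted p = 0.356), neither of them called. That of CD + PE from CD + Veh was -0.33 (adjusted p = 0.813). The part of the clock genes in the Lepr difference was not tested apart from this.

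**Figure D3:**
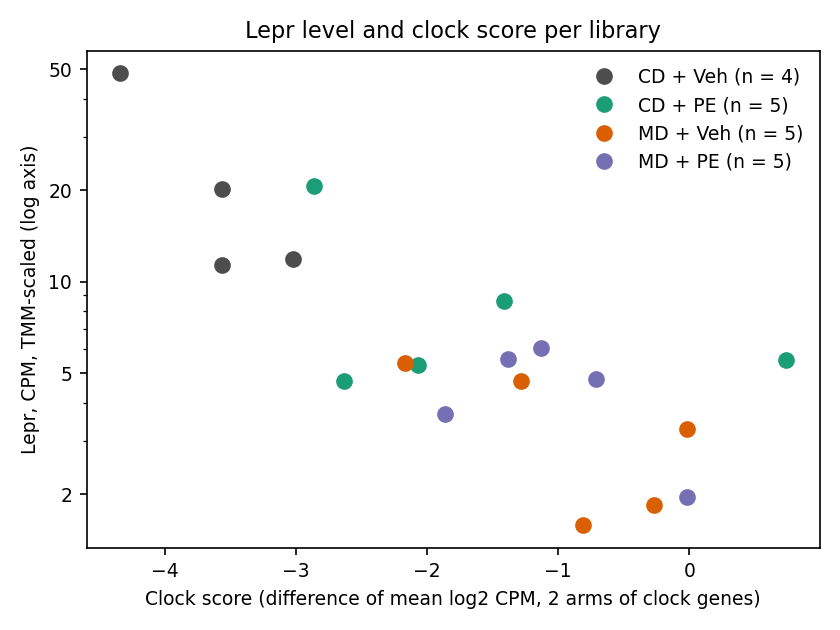
Lepr level (TMM-scaled CPM, log axis) against the clock score (log2 units) for each of the 19 libraries, coloured by group. CD + Veh libraries sit at scores from -4.34 to -3.02 with 11.3 to 48.4 CPM of Lepr, apart from the MD libraries at scores from -2.17 to -0.02 with 1.58 to 6.04 CPM.

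Other measures moved with the diet too, and their part in the Lepr difference was not tested. Hepatocyte markers summed to 76400 to 93300 CPM in CD + Veh and to 55900 to 70600 in MD + Veh. Single hepatocyte markers went both ways in MD + Veh against CD + Veh, with 2 called higher, 3 called lower and 5 not called. The 10 Kupffer cell markers summed to 151 to 258 CPM in CD + Veh and to 312 to 451 in MD + Veh, and 8 monocyte and neutrophil markers to 22.3 to 32.5 and 48.3 to 70.5 CPM, without overlap. The 3 MD + Veh livers with the highest muscle marker sums (replicates 1, 2 and 3) were the 3 with the least Lepr. Without the 4 libraries whose muscle markers summed to more than 100 CPM, a choice made after seeing the data, the Lepr difference of MD + Veh, with 2 livers, was -2.16 (edgeR adjusted p = 0.0787) and lost its call. That of MD + PE from CD + Veh was -2.35 (adjusted p = 0.00335) and kept it. Among the libraries numbered 39 to 45, which hold all of CD + Veh and 3 livers of MD + Veh, it was -3.34 (adjusted p = 0.00792).

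Among the genes whose log2 CPM followed Lepr most closely over the 19 libraries, out of 12439 genes that averaged 1 CPM or more, were Ddhd2 (Pearson r = 0.913), Hook2 (0.900), Cox7a2l (0.887) and Pcmtd1 (0.884). Ddhd2 encodes a phospholipase. These correlations include the differences between groups. After subtracting group means they were 0.758, 0.763, 0.759 and 0.671.

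Leprot, whose product holds the leptin receptor back from the cell surface, spanned 11.4 to 20.4 CPM over all libraries. It stood at 16.7, 14.8, 14.0 and 18.4 CPM in CD + Veh and at 14.6, 15.8, 16.4, 14.4 and 14.1 CPM in MD + Veh. The 2 groups overlapped, with a log2 fold change of -0.08 (SE 0.146, interval -0.39 to 0.22, edgeR adjusted p = 0.751). In CD + PE it stood at 11.5, 20.4, 15.7, 12.9 and 11.4 CPM, and in MD + PE at 13.9, 15.7, 16.8, 19.4 and 13.8. Its highest library, CD + PE replicate 2, was also the one with the most Kupffer cell markers, whose part was not tested. No interval for Leprot reached a size of 0.5 on the log2 scale in a comparison of 2 groups, so the 6.87-fold fall of Lepr had no counterpart in its upstream neighbour. The genes nearest to Leprot in pattern were Apaf1 (r = 0.824), Atp8a1 (0.743) and Vasp (0.739).

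Il6ra encodes the subunit that binds interleukin 6 itself. Its level was 51.6, 23.9, 39 and 51 CPM in CD + Veh and 21.1, 27.1, 23.3, 46 and 26 CPM in MD + Veh. In MD + Veh replicate 4 stood apart from the other 4. The log2 fold change was -0.53 (SE 0.303, interval -1.16 to 0.10, edgeR adjusted p = 0.261), and -0.76 without that library. In MD + PE it stood at 30.6, 31.3, 42.1, 38 and 65.7 CPM, a difference of 0.53 from MD + Veh (interval -0.07 to 1.14, edgeR adjusted p = 0.393) and of 0.00 from CD + Veh (interval -0.63 to 0.64). CD + PE livers held 29.3, 21.5, 42.6, 49.2 and 62.2 CPM. Within groups Il6ra spread by 31.5% to 39.3% of the mean, about as wide as these differences. The genes nearest to it in pattern were Cep85l (r = 0.875), Slc25a32 (0.864) and Ell2 (0.856).

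Il6st encodes gp130, which carries the signal of interleukin 6, interleukin 11, oncostatin M and related cytokines across the membrane. It was the steadiest of the 6, at 158, 139, 152 and 131 CPM in CD + Veh and 151, 149, 141, 156 and 153 CPM in MD + Veh. CD + PE livers held 123, 152, 143, 144 and 149 CPM and MD + PE livers 143, 149, 169, 163 and 172. The coefficient of variation within groups was 3.87% to 8.45%. The largest difference was 0.16 in MD + PE against CD + PE (SE 0.0705, interval 0.02 to 0.31, unadjusted p = 0.0321 and adjusted p = 0.180 in edgeR). The diet difference among vehicle mice was 0.04 (interval -0.11 to 0.20). Its nearest genes in pattern were Lrrfip2 (r = 0.849), Norad (0.818) and Canx (0.808).

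Stat3, the transcription factor on which both receptors converge, was called in no comparison. It stood at 70.8, 75.5, 105 and 74.0 CPM in CD + Veh and at 68.4, 68.6, 67.7, 66.7 and 69.0 CPM in MD + Veh. The groups did not overlap, and the MD + Veh livers varied by 1.32% of their mean, but CD + Veh replicate 3 stood far above its group. The log2 fold change was -0.26 (SE 0.101, edgeR adjusted p = 0.0980), and -0.11 without that library. MD + PE livers held 64.7, 66.9, 62.1, 59.5 and 71.9 CPM, a difference of -0.32 from CD + Veh (SE 0.101, edgeR adjusted p = 0.0286). It passed the adjusted p but not the minimum size, and was -0.18 (adjusted p = 0.150) without CD + Veh replicate 3. CD + PE livers held 68.1, 91.6, 76.4, 75.8 and 74.5 CPM, and MD + PE differed from them by -0.25 (SE 0.0960, adjusted p = 0.128). Stat3 RNA does not measure the phosphorylated protein. Its nearest genes in pattern were Usp35 (r = 0.859), C4b (0.825) and Ifitm2 (0.806).

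Socs3, the feedback inhibitor, was raised in 1 liver and not in a group. CD + PE livers held 48.2, 8.51, 7.42, 6.83 and 9.58 CPM. CD + Veh livers held 12.8, 9.17, 11.9 and 5.86 CPM. CD + PE replicate 1 stood far above all other 18 libraries, and the other 4 livers of its group lay within the CD + Veh range. The log2 fold change was 0.70 (SE 0.502, interval -0.35 to 1.75, edgeR adjusted p = 0.517), and -0.29 without replicate 1. MD + Veh livers held 9, 8.30, 8.25, 3.79 and 5.95 CPM, and MD + PE livers 12.4, 8.51, 3.74, 5.91 and 5.57. The difference of MD + PE from CD + PE was -1.16 (SE 0.482, unadjusted p = 0.0263 and adjusted p = 0.161 in edgeR), and -0.16 without CD + PE replicate 1. Its nearest genes in pattern, Fzd7 (r = 0.844), Gse1 (0.842) and Cabin1 (0.781), were found with that library included.

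The liver with high Socs3 was not high in all STAT3 targets. The 4 genes given for it were chosen after their values were seen, as were the genes of its plot. In CD + PE replicate 1, Myc stood at 23.1 CPM against 2.21 to 7.02 in the rest of its group, and Bcl3 at 34.0 against 17.3 to 21.8. The acute phase genes Saa1, at 22.2 CPM, and Lcn2, at 0.498, were the lowest of the group in the same liver. Of the 25 STAT3 target genes tested, it was the highest of its group at 7 and the lowest at 9. That library also had the highest skeletal muscle marker sum of its group (423 CPM over 9 markers), whose part was not tested.

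**Figure D4:**
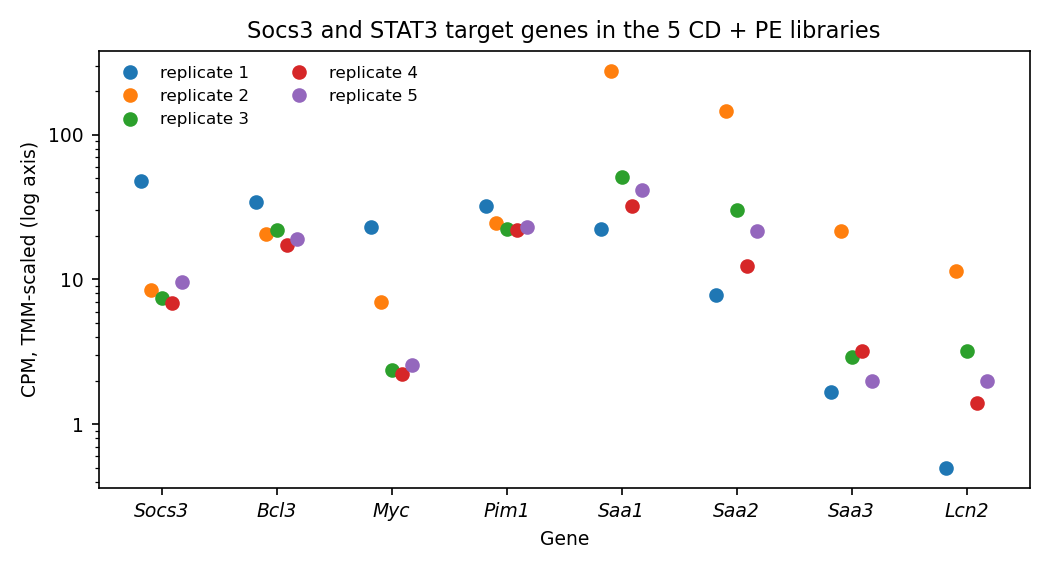
Level (TMM-scaled CPM, log axis) of Socs3 and of 7 STAT3 target genes in the 5 CD + PE libraries, coloured by replicate. Replicate 1 lies above the rest at Socs3 (48.2 CPM), Bcl3, Myc and Pim1 and below the rest at Saa1, Saa2, Saa3 and Lcn2.

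Around the 6 genes, 69 others of the same pathways were examined in 6 lists, of which 61 genes were tested. In MD + Veh against CD + Veh, 14 of the 61 were called (23.0%, beside 10.4% of all genes), 6 higher and 8 lower, with a median log2 fold change of -0.01 beside 0.00 over all genes. In MD + PE against CD + Veh 17 were called (27.9%, beside 14.6%), and in MD + PE against CD + PE 9 (14.8%, beside 4.61%). The particle comparisons gave 2 on the control diet (3.28%, beside 2.92%) and 1 on the metabolic diet (1.64%, beside 1.08%). None was called for the interaction in edgeR. There, 11 of the 61 had an unadjusted p below 0.05, a larger share than the 8.77% of all genes. DESeq2 called 14, 17, 9, 3, 4 and 0 in the same order.

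Ligands were scarce. Il6 had at most 3 counts in a library and 0 in 10 of the 19, Osm at most 2, Il11 at most 2 and Lif at most 4. Lep, the leptin gene of adipocytes, was at 0 in 15 libraries and at 2 counts in 3, but had 48 counts (3.04 CPM) in MD + Veh replicate 1. That library also had the highest skeletal muscle marker sum of all, 3130 CPM. Its adipocyte markers summed to 120 CPM, within the MD + Veh range of 109 to 270. The part of either was not tested. Of 9 ligands 3 were tested (Clcf1, Ctf1 and Cntf), and edgeR called 0 of them in each comparison, with 0 at an unadjusted p below 0.05. A difference in Il6 was not detectable at this depth.

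Among 6 further receptors, all tested, Il11ra1 was the 1 gene called in all 5 comparisons of 2 groups. It encodes the binding subunit for interleukin 11, which signals through Il6st. Its level was 36.6, 45.1, 45.2 and 42.6 CPM in CD + Veh and 25.2, 30.4, 27.4, 29.3 and 29.1 CPM in CD + PE. MD + Veh livers held 31.2, 26.2, 28.8, 27.4 and 31.9 CPM and MD + PE livers 26.9, 17.3, 22.6, 20 and 18.1. CD + Veh lay above every liver of the other groups, and CD + PE and MD + Veh overlapped. The log2 fold change from CD + Veh was -0.58 in CD + PE (SE 0.109, edgeR adjusted p = 0.00561), -0.54 in MD + Veh (adjusted p = 0.00210) and -1.01 in MD + PE (adjusted p = 2.23e-06). MD + PE was below MD + Veh by -0.47 (adjusted p = 0.0290), a call that was lost in 6 of 19 fits with 1 library left out, with a replicate block and with only the groups compared. It was below CD + PE by -0.43 (adjusted p = 0.0172), a call lost without MD + PE replicate 2 by its size, -0.37, and with only the groups compared. With the library number division (39 to 45 against 46 to 57) as a covariate, neither PE difference from a vehicle group on the same diet was called. Only MD + Veh had libraries on both sides of that division, with all CD + Veh libraries below it and all PE libraries above it. The covariate was thus estimated from the MD + Veh livers alone, and calls lost with it cannot tell library number from group. Il11ra1 has a close copy, Il11ra2, with which reads could be shared, and which held at most 10 counts in a library.

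Leprotl1, a relative of Leprot, rose in MD + Veh by 0.63 (SE 0.128, edgeR adjusted p = 0.00240) and in MD + PE by 0.52 (adjusted p = 0.00723) against CD + Veh. It stood at 10.4 to 13.4 CPM in CD + Veh and at 18 to 21.7 CPM in MD + Veh, with no overlap. Osmr, the oncostatin M receptor that pairs with Il6st, rose by 0.84 (SE 0.236, adjusted p = 0.0215) and by 0.98 (adjusted p = 0.00615) in the same comparisons. It stayed low, at 1.54 to 2.74 CPM in CD + Veh and 3.01 to 4.31 in MD + Veh, and its call in MD + Veh was lost without any 1 of CD + Veh replicates 2, 3 and 4. With the clock score as a covariate, Leprotl1 was called in neither comparison and Osmr was not called in MD + Veh. With the library number division as a covariate, neither was called in MD + PE against CD + Veh.

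Of 11 kinases and phosphatases, 1 was called in 1 comparison (9.09%, beside 14.6% of all genes): Ptpn2, a phosphatase that acts on JAK and STAT proteins, was -0.46 in MD + PE against CD + Veh (SE 0.148, edgeR adjusted p = 0.0323). That call was lost in 6 of 19 fits with 1 library left out. It was also lost with no filter on low counts and with the library number division or the clock score as a covariate. Of 5 other STAT genes tested, Stat5a, a mediator of growth hormone and prolactin signals, rose against CD + Veh in each of the other groups. The rise was 0.64 in CD + PE (SE 0.142, edgeR adjusted p = 0.0160), 0.81 in MD + Veh (adjusted p = 6.58e-04) and 0.72 in MD + PE (adjusted p = 0.00122). The call in CD + PE was lost when either replicate 2 of CD + Veh or replicate 3 of CD + PE was left out. The library number division as a covariate also removed that call of Stat5a. It stood at 7.95 to 11.2 CPM in CD + Veh and at 12.5 to 21.2 in the other groups. All 3 calls were lost with the clock score as a covariate. Stat5a shares exon bases with Stat3 on the other strand, and the libraries were made with a stranded kit. Stat2, a factor of interferon signalling, was -0.45 in MD + PE against CD + PE (SE 0.102, edgeR adjusted p = 0.0107), or -0.36 and not called without CD + PE replicate 2. The Stat2 call was also lost with only the groups compared. Of 11 other SOCS and PIAS genes, Socs7 was called in MD + PE against CD + Veh, at -0.57 (SE 0.102, adjusted p = 4.95e-04), 1 of 11 beside 14.6% of all genes. That call was lost with the clock score as a covariate.

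The genes that STAT3 is known to drive in liver did not move one way. In MD + Veh against CD + Veh, 10 of 25 tested were called (40%, beside 10.4% of all genes), 3 higher and 7 lower. The list median was -0.02. Of the 10 hepatocyte markers, 5 were called in the same comparison (50%), 2 higher and 3 lower. A share this high thus also stood outside the STAT3 target list. Whether the hepatocyte markers respond to the same signal was not tested. The fibrinogen genes Fgb and Fgg fell by 0.74 and 0.50 on the log2 scale (edgeR adjusted p = 2.75e-05 and 5.92e-04). The pentraxin Apcs fell by 1.15 (adjusted p = 4.2e-05), from 46.6 to 58.7 CPM in CD + Veh to 20 to 27.5 CPM in MD + Veh. Hamp, the hormone hepcidin that limits iron uptake, fell by 1.57 (adjusted p = 6.51e-05), from 570 to 807 CPM to 141 to 264 CPM. Orm1, an orosomucoid, fell by 0.51 (adjusted p = 0.0236), a call lost in 5 of 19 fits with 1 library left out. The 3 higher were Saa3 (2.00, adjusted p = 0.0422), Orm2 (1.23, adjusted p = 0.0450) and Pim1 (0.52, adjusted p = 0.0393), outside the rule for named genes and named because they are few. Orm1 and Orm2 are near copies, so their split of reads is uncertain, as it is for Saa1 and Saa2.

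The same list gave 7 of 25 in MD + PE against CD + PE (28.0%, beside 4.61%), 2 higher and 5 lower. In MD + PE against CD + Veh it gave 11 of 25 (44%, beside 14.6%), 4 higher and 7 lower. The 10 hepatocyte markers gave 5 (50%) and 7 (70%) in these 2 comparisons. Fgb, Fgg, Apcs and Hamp fell in both. Lcn2 (2.38 and 2.41) and Orm2 (2.00 and 1.58) rose in both and are named, outside the rule, as the 2 called higher against CD + PE. The call of Fgg against CD + PE (-0.43) was lost without MD + PE replicate 4 by its size, -0.38 after rounding. In the particle comparisons edgeR called 0 of 25 on each diet, beside 2.92% (CD) and 1.08% (MD) of all genes. At an unadjusted p below 0.05 there were 2 of 25 on each diet, beside 17.5% and 15.7%, shares that the list did not exceed.

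**Figure D5:**
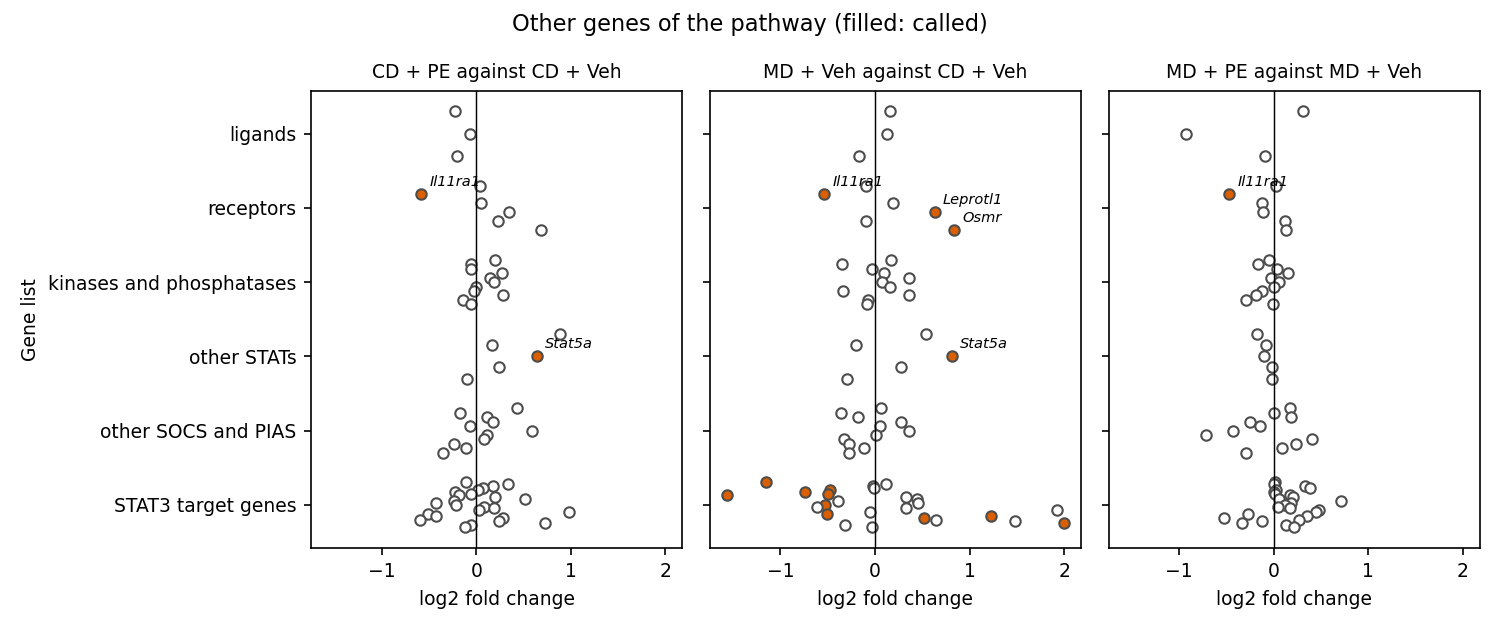
Log2 fold change of each tested gene of the 6 pathway lists in 3 comparisons, with called genes filled and, outside the STAT3 target list, named. The STAT3 targets lie on both sides of 0 in MD + Veh against CD + Veh, with 3 called higher and 7 lower, and Il11ra1 lies below 0 in all 3.

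The 6 members did not move as a block. After subtracting group means, Lepr and Il6ra gave r = 0.58 over the 19 libraries, Il6st and Socs3 gave -0.55, and Lepr and Leprot gave 0.12, as descriptions of libraries that share groups and depth.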

How the data were processed

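Liver RNA-seq of 19 mice was analysed. Per the paper's methods the authors made stranded poly(A) libraries, trimmed reads with fastp 0.23.4, quantified them with Salmon 1.10.3 (GENCODE, GRCm39) and used tximport for values per gene. The deposited table gives estimated counts, rounded to whole numbers and not normalized. Groups come from the sample titles. Genes were filtered with filterByExpr by group, scaled by TMM and tested with the quasi-likelihood F test of edgeR 4.0.16 (R 4.3.3), all 19 libraries in 1 fit, with Benjamini-Hochberg adjustment over 13597 genes. DESeq2 1.42.0, the study's tool, was an alternative. The limits of 0.05 and 0.38 follow the study. The test was tested on simulated data. Log2 CPM used a prior count of 2. The 6 members and all lists were chosen with earlier results of these data known. Named pathway genes are those called in at least 1 comparison, up to 5 per list by smallest adjusted p. Positions and promoter windows come from the GRCm39 genome and GENCODE vM39; starts are those of canonical transcripts. No 2 libraries of a group were copies, since even in the closest of 36 pairs the mean squared difference was 11.2 times that of counting error alone. Per the labels all mice belong to 1 batch, and p-values measure the spread between mice within groups. The paper's methods say that mice shared housing in groups, without naming the cage of each mouse. If cages followed the treatment groups, cage and treatment cannot be told apart. The part of housing was not tested. A gene whose pattern was among those nearest to Lepr is not reported here.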

Additional observations from a re-analysis of the deposited data

Results flagged for a closer look

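In 4 of 24 sets of values, 6 genes in 4 groups, 1 library stood apart from its group by Dixon's test at the 95% level. For normally distributed values chance gives this in about 1 of 20. The test was run on CPM, which need not be so distributed, and whether the flags hold on the log2 scale was not tested. Lepr in CD + PE replicate 5 was 20.6 CPM, with 8.65 as the next value. Il6ra in MD + Veh replicate 4 was 46 CPM, with 27.1 next. Stat3 in CD + Veh replicate 3 was 105 CPM, with 75.5 next. Socs3 in CD + PE replicate 1 was 48.2 CPM, with 9.58 next. What sets these livers apart was not tested.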

How the results depend on the processing

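Of 1020 member values recomputed under alternatives, 60 changed sign, none of them with an adjusted p below 0.05, and the cause was not tested. Beyond the Lepr calls described above, the counts moved as follows. With the clock score as a covariate, MD + Veh against CD + Veh gave 0 members and 9 pathway genes, while 2 pathway genes were called between MD + PE and MD + Veh. With the library number division as a covariate, CD + PE against CD + Veh gave 0 pathway genes, MD + PE gave 0 against MD + Veh and 11 against CD + Veh. That covariate was estimated from the MD + Veh livers alone, the only group on both sides of the division. Between MD + PE and MD + Veh, 2 pathway genes were called with RLE size factors, 4 with DESeq2 and 0 with only the groups compared. With no minimum fold change, 2 members were called in MD + PE against CD + Veh, Stat3 joining Lepr. Without the 4 libraries with high muscle marker sums, 0 members were called in MD + Veh against CD + Veh. With 1 library left out at a time, CD + PE against CD + Veh gave 0 to 1 members and 1 to 3 pathway genes, and MD + PE against MD + Veh gave 0 to 3 pathway genes.

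Signs turned for members that were not called. With the clock score as a covariate, Il6ra was 0.63 (CD + PE) and 0.45 (MD + Veh) from the CD + Veh level, and its interaction -0.17. With the library number division as a covariate, Lepr was -0.19 between MD + PE and MD + Veh, and MD + PE differed from CD + Veh by 0.13 for Leprot, -0.59 for Il6ra and 0.35 for Socs3. Among libraries 46 to 57 alone, Lepr was -0.18 for MD + PE against MD + Veh. For MD + PE compared with CD + Veh, Leprot was 0.02 with RLE size factors, 0.01 with DESeq2 and 0.01 with only the groups compared, and Il6ra was -0.01 with no filter on low counts. Without the libraries with high muscle marker sums, CD + PE against CD + Veh gave 0.09 for Il6ra, 0.03 for Il6st and -0.29 for Socs3. MD + PE then differed by -0.19 for Lepr from MD + Veh, by -0.07 for Il6ra from CD + PE and by 0.02 for Leprot from CD + Veh, and the interactions of Stat3 and Socs3 were -0.04 and 0.86. Leaving out 1 library at a time gave these ranges. In CD + PE against CD + Veh they were -0.22 to 0.15 for Il6ra, -0.06 to 0.03 for Il6st, -0.14 to 0.07 for Stat3 and -0.29 to 0.90 for Socs3. In MD + Veh against CD + Veh, Leprot ran from -0.14 to 0.00. In MD + PE, Socs3 ran from -0.26 to 0.19 against MD + Veh, Il6ra from -0.20 to 0.22 against CD + PE, and against CD + Veh Leprot from -0.06 to 0.10 and Il6ra from -0.22 to 0.15. The interaction ran from -0.14 to 0.08 for Stat3 and from -0.96 to 0.32 for Socs3.

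The labels give the same replicate numbers in every group but no shared source. Over 27 pairs of libraries with 1 number the median correlation of their deviations was 0.0293, and 6 pairs were above 0.1. Pairs with unlike numbers were not measured beside them, so a pairing was neither shown nor excluded. With a replicate block no member gained or lost a call, and Il11ra1 lost its call in MD + PE against MD + Veh. Lepr in CD + PE against CD + Veh was -1.53 (edgeR adjusted p = 0.0521), Socs3 in MD + PE against MD + Veh was -0.01, and the change of MD + PE from CD + Veh was 0.04 for Leprot and -0.12 for Il6ra. Depth limits Lepr, at 24 to 88 counts in the MD libraries, and the interleukin 6 ligands most.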
